A study of Homo sapiens with 11 samples.

Results

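The 10 genes described here are regulators of the epithelial-to-mesenchymal transition (EMT) and factors that keep cells epithelial: SNAI1, SNAI2, ZEB1, TWIST1, AXL, TGFBI, LOXL2, ESRP1, ESRP2 and GRHL2. They were chosen by name, with earlier results of these data known, and each matched 1 of the 61464 gene IDs in the count table. The study treated HCT116, an established human colorectal carcinoma line that the labels describe as epithelial and RAS mutant, with triterpenoid extracts of Ganoderma, a genus of bracket fungi. Polyadenylated RNA was sequenced after 48 h. The 11 libraries fall into cells given the extract GTEA1 (n = 4), cells given the extract GTEA7 (n = 4) and cells given DMSO, the control (n = 3), all labelled as batch 1. The labels give no dose, so a difference between the extracts is a difference between these libraries as labelled. All values come from 1 cell line, and nothing says that the replicates came from separate cultures, so the p-values measure only the spread between these libraries. In bulk RNA, fewer cells with a transcript and less of it per cell cannot be told apart.

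EMT is a programme in which epithelial cells loosen their junctions and gain motility and matrix-remodelling genes. SNAI1, SNAI2, ZEB1 and TWIST1 are transcription factors that bind E-box sequences and repress epithelial genes such as CDH1, which encodes E-cadherin. GRHL2 activates epithelial junction genes and opposes ZEB1, and the splicing regulators ESRP1 and ESRP2 keep epithelial exons in transcripts such as FGFR2 and CD44. AXL is a receptor tyrosine kinase activated by GAS6, LOXL2 is a secreted enzyme that cross-links collagen and elastin, and TGFBI is a secreted matrix protein named for its induction by TGF-beta.

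Promoter windows from RefSeq (build GRCh38.p14, 250 bases before to 50 after the annotated start) were found for AXL, ZEB1 and TGFBI. The windows printed are the upstream one of AXL (chr19:41218973-41219272, plus strand), whose fold change with GTEA1 was the largest among the 9 members tested, the ZEB1 window with most E-boxes (chr10:31318966-31319265, plus strand) and that of TGFBI (chr5:136028738-136029037, plus strand), whose counts were lower with both extracts. Each runs 5′ to 3′ in lower case, and capitals mark the E-box CAGGTG, read on either strand.
AXL: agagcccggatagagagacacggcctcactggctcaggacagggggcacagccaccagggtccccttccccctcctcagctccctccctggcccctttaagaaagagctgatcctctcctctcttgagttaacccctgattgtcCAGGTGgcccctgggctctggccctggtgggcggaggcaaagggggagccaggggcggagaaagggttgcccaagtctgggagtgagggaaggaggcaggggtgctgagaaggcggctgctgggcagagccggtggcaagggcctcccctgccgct
ZEB1: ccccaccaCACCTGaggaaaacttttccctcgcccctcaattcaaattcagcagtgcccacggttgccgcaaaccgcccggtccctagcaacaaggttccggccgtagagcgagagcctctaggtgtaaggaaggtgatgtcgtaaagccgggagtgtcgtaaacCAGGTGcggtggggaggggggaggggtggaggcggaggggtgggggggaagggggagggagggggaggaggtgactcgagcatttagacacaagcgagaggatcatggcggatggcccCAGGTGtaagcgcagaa
TGFBI: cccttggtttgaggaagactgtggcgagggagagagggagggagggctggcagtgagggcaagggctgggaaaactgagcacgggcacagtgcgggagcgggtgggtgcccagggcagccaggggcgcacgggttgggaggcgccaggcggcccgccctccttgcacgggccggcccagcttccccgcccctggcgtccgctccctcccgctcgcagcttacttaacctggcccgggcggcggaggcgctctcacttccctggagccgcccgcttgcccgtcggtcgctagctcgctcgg
The AXL window held 1 E-box, starting 106 bases before the transcription start. AXL had 2 windows, and the one not printed held 0. The printed ZEB1 window held 3, starting 242 and 85 bases before the start and at base 34 after it. ZEB1 had 7 windows, and this one was picked for its E-box count. The TGFBI window held none. Of 35116 RefSeq windows of the same length, 20.6% held at least 1 such E-box. That share is over single windows, so a window picked for its E-boxes cannot be read against it. Also searched on both strands were the AP-1 site TGANTCA (in 7.71% of windows), the cyclic AMP response element TGACGTCA (1.85%), the ATF4 motif TGATGNAA (3.62%) and the antioxidant response element TGACNNNGC (13.3%). None of these stood in the printed windows, so no marked E-box overlaps another motif. The antioxidant response element did stand in the other AXL window, 47 bases before its start. It also stood in another ZEB1 window, at base 25 after its start. A match in these letters is a description and not a bound site.

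Total counts were 13742326 to 16433111 in GTEA1 libraries, 14955685 to 19304211 in GTEA7 libraries and 13866350 to 17431515 in DMSO libraries. Levels are given as CPM, the read count scaled to a common library total after correction by the trimmed mean of M-values (TMM), with factors of 0.933 to 0.950 for GTEA1, 1.01 to 1.02 for GTEA7 and 1.05 to 1.06 for DMSO. A list of 10 colon epithelial markers summed to 2720 to 2850 CPM with GTEA1, 2230 to 2330 CPM with GTEA7 and 2230 to 2380 CPM with DMSO, and none was at 0 in any group, although VIL1 (6, 14 and 8 counts in GTEA1, GTEA7 and DMSO) and LGALS4 (13, 2 and 4 counts) were near it. The higher GTEA1 sum was not a rise of all markers. Of the 8 tested, 4 were higher and 4 lower with GTEA1 than with DMSO (35.6% and 36.2% of all tested genes). KRT19 stood at 1027 CPM with GTEA1 and 452 CPM with DMSO, and KRT8 at 972 and 1161 CPM. The 10 fibroblast markers summed to 38.4 to 46.5 CPM with GTEA1, 37.0 to 46.1 CPM with GTEA7 and 54.0 to 55.4 CPM with DMSO. Nearly all of that was COL1A1 (40.8, 39.6 and 51.8 CPM), and 3, 4 and 2 of the 10 were at 0. Between GTEA1 libraries COL3A1 ran unevenly, from 0 to 2.70 CPM, and COL1A2 from 0 to 0.771 CPM. The 6 endothelial markers reached at most 4.45, 4.40 and 3.59 CPM and the 7 immune markers at most 0.72, 0.985 and 1.31 CPM in GTEA1, GTEA7 and DMSO libraries. The part of these sums in the results was not tested.

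Genes can be compared with each other only per length, so levels were divided by the summed exon length of each gene (GENCODE v29). ESRP1 stood far above the others, at 82.0 ± 4.28 CPM per kilobase with GTEA1, 42.8 ± 0.854 with GTEA7 and 42.3 ± 0.341 with DMSO (SD, n = 4, 4 and 3, as for all group values below). In DMSO cells the order below it was AXL at 8.00 ± 0.06 CPM per kilobase, LOXL2 at 7.93 ± 0.17, ESRP2 at 6.78 ± 0.48, GRHL2 at 6.50 ± 0.12 and SNAI1 at 4.85 ± 0.29. The neighbours AXL and LOXL2 did not differ beyond their spread, nor did ESRP2 and GRHL2. With the longest coding transcript as the length, LOXL2 (12.8 CPM per kilobase) and ESRP2 (9.94) both stood above AXL (8.70) in DMSO cells, followed by GRHL2 (7.52). The other 4 genes were low: ZEB1 at 0.913 ± 0.088, TWIST1 at 0.614 ± 0.063, SNAI2 at 0.247 ± 0.089 and TGFBI at 0.0916 ± 0.029 CPM per kilobase. DMSO cells thus carried the ESRPs and GRHL2 at higher length-scaled levels than ZEB1, TWIST1 or SNAI2, with SNAI1 between them. With GTEA1 the order changed below ESRP1: AXL reached 33.0 ± 1.20 CPM per kilobase, and GRHL2, at 4.24 ± 0.194, stood below SNAI1, at 5.58 ± 0.661. By coding length GRHL2 (4.90) lay closer to SNAI1 (5.58). With GTEA7 the same 6 genes led, AXL at 6.99 ± 0.238 and LOXL2 at 7.02 ± 0.493 CPM per kilobase not differing beyond their spread, although by coding length LOXL2 (11.3) stood above AXL (7.61).

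**Figure D1:**
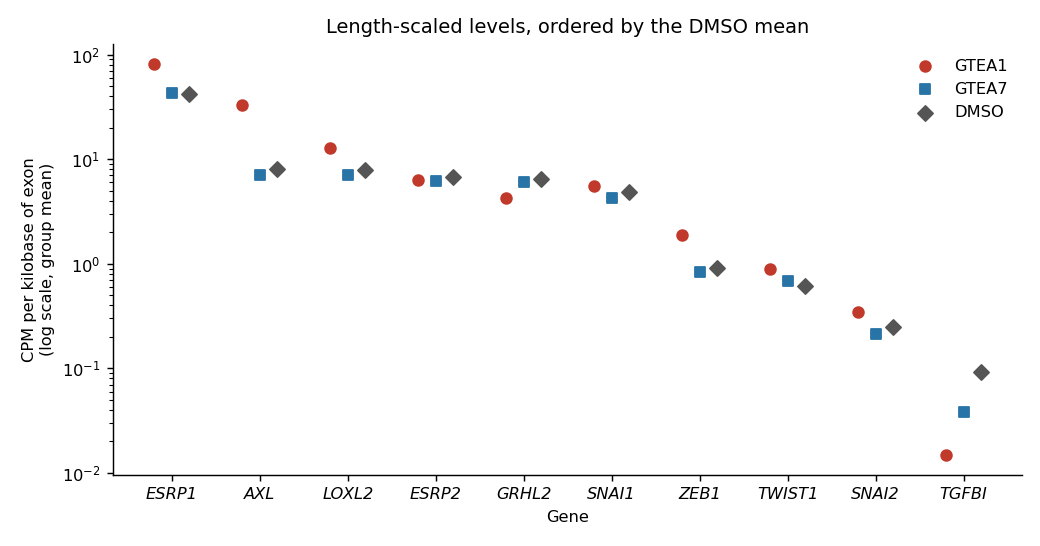
Group mean levels of the 10 genes in CPM per kilobase of exon on a log axis, for GTEA1 (circles, n = 4), GTEA7 (squares, n = 4) and DMSO (diamonds, n = 3), ordered by the DMSO mean. AXL stands at 33.0 with GTEA1, against 8.00 with DMSO, and GTEA7 lies close to DMSO for every gene but TGFBI (0.0385 with GTEA7, against 0.0916 with DMSO).

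GTEA1 raised ZEB1, AXL, LOXL2 and ESRP1 and lowered GRHL2, while ESRP2, SNAI1 and SNAI2 did not pass the test. TWIST1 also passed, but only narrowly. The members that rose therefore included AXL, LOXL2 and the repressor ZEB1 together with ESRP1, a splicing regulator of epithelial cells. By edgeR's quasi-likelihood test with Benjamini-Hochberg adjustment over the 17963 tested genes (threshold 0.05), 5 of the 9 members tested rose and 1 fell, where 71.8% of all tested genes were called (35.6% higher and 36.2% lower). The same 6 members had groups that did not overlap, as 68.7% of all tested genes did (33.9% higher and 34.8% lower). The share of members called, counting both directions, is near the 71.8% of all tested genes, so that count says nothing particular about these genes. The split of 5 higher and 1 lower was not tested against the background. TGFBI was too low to be tested. The median log2 fold change was 0.52 over the 9 members and -0.008 over all tested genes. Scaling by library size alone moved the median of all genes to -0.167, and the calls then split into 4828 higher and 8179 lower, where TMM gave 6390 higher and 6505 lower.

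**Figure D2:**
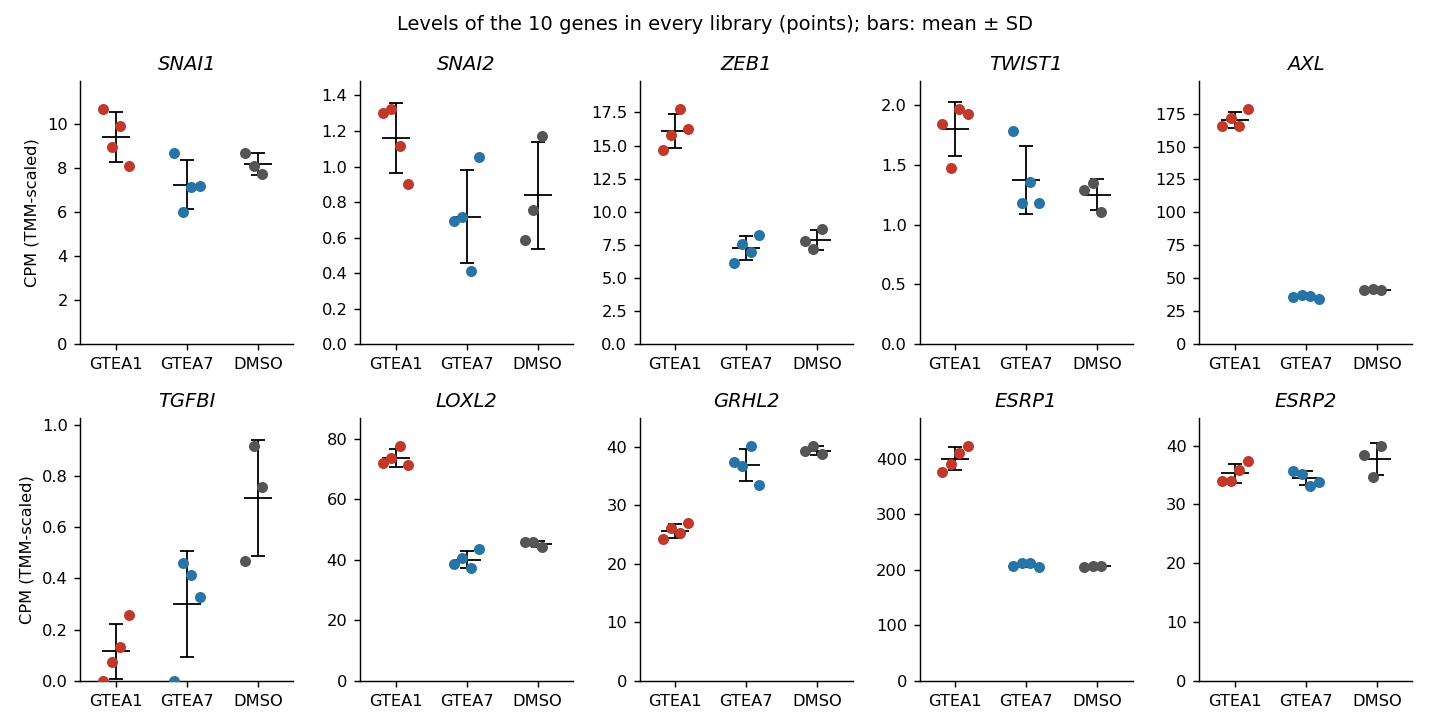
CPM of each member in every library (points) with the group mean ± SD (bars), for GTEA1 (n = 4), GTEA7 (n = 4) and DMSO (n = 3), each panel with its own axis starting at 0. GTEA1 libraries lie apart from DMSO for AXL (165 to 178 CPM, against 41.1 to 41.6 CPM) and below DMSO for GRHL2 and TGFBI.

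Among the repressors, ZEB1 had 14.7, 15.8, 17.7 and 16.2 CPM in GTEA1 replicates 1 to 4, 6.16, 7.57, 6.96 and 8.28 CPM in GTEA7 replicates 1 to 4, and 7.81, 7.18 and 8.70 CPM in DMSO replicates 1 to 3. Every GTEA1 library lay above every other library, and the GTEA7 and DMSO ranges overlapped. The log2 fold change of GTEA1 over DMSO was 1.04 ± 0.10 (SE, edgeR adjusted p = 1.8e-13), or 2.06-fold. ZEB1-AS1, the antisense gene at its promoter, also rose with GTEA1, to 7.22 ± 0.199 CPM, against 3.19 ± 0.704 CPM with DMSO (1.20 ± 0.14, edgeR adjusted p = 8.7e-11). The labels do not say that the kit keeps strand, so reads from the 366 bases where its exons overlap those of ZEB1 (4.23% of ZEB1 exon length) cannot be assigned to either.

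SNAI1, the founding member of its repressor family, had 10.7, 8.96, 9.89 and 8.09 CPM in GTEA1 libraries, 8.69, 5.99, 7.14 and 7.16 CPM in GTEA7 libraries, and 8.69, 8.10 and 7.73 CPM in DMSO libraries. The ranges of all 3 groups overlapped. GTEA1 over DMSO gave 0.19 ± 0.11 (95% interval -0.03 to 0.42, edgeR adjusted p = 0.11), and 0.27 without GTEA1 replicate 4 (edgeR adjusted p = 0.037). SNAI2, its close relative, had 17, 18, 17 and 14 counts in GTEA1 libraries, 12, 14, 7 and 16 in GTEA7 libraries, and 10, 14 and 17 in DMSO libraries. These counts are so low that the interval of the GTEA1 fold change (0.48 ± 0.30) ran from -0.12 to 1.09 (edgeR adjusted p = 0.15), and without DMSO replicate 3 the value was 0.76 (edgeR adjusted p = 0.049).

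TWIST1, a basic helix-loop-helix factor of mesoderm and EMT, had 24, 20, 30 and 30 counts in GTEA1 libraries, 31, 23, 23 and 18 in GTEA7 libraries, and 22, 25 and 16 in DMSO libraries. As CPM these were 1.80 ± 0.23 with GTEA1, 1.38 ± 0.29 with GTEA7 and 1.25 ± 0.13 with DMSO, and the GTEA1 libraries lay above the DMSO libraries without overlap. The log2 fold change with GTEA1, 0.52 ± 0.23, passed at an edgeR adjusted p = 0.04. The call was lost, at fold changes of a like size, without DMSO replicate 1 (0.54, adjusted p = 0.068), 2 (0.58, adjusted p = 0.054) or 3 (0.45, adjusted p = 0.12). The same held without GTEA1 replicate 1 (0.51, adjusted p = 0.059), 3 (0.48, adjusted p = 0.084) or 4 (0.49, adjusted p = 0.078). Scaling by library size alone gave 0.36 (edgeR adjusted p = 0.16), and DESeq2's Wald test 0.53 (adjusted p = 0.1).

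AXL, the receptor, changed most among the 9 members tested. It had 165, 171, 166 and 178 CPM in GTEA1 libraries, 35.7, 37.3, 36.7 and 34.5 CPM in GTEA7 libraries, and 41.1, 41.6 and 41.1 CPM in DMSO libraries. The 3 groups were fully separated, with GTEA1 far above and GTEA7 just below DMSO. GTEA1 over DMSO was 2.04 ± 0.04 on the log2 scale (edgeR adjusted p = 1.1e-39), or 4.13-fold, and 2.04% of all tested genes had a fold change at least this high. The rise held in each of the 15 alternative settings, between 1.89 and 2.06.

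LOXL2, the collagen cross-linking enzyme, had 71.9, 73.6, 77.6 and 71.4 CPM in GTEA1 libraries, 38.6, 40.6, 37.3 and 43.7 CPM in GTEA7 libraries, and 45.8, 45.8 and 44.2 CPM in DMSO libraries. It followed AXL in pattern, GTEA1 being highest and GTEA7 lowest, without overlap. GTEA1 over DMSO was 0.70 ± 0.05 (edgeR adjusted p = 6.1e-18), or 1.63-fold. Its antisense gene LOXL2-AS1 was at 1.57 ± 0.355 CPM with GTEA1, against 0.657 ± 0.283 CPM with DMSO (1.28 ± 0.29, edgeR adjusted p = 0.00015), and overlaps 178 bases of LOXL2 exon (3.12%). The more abundant gene ENTPD4 overlaps 120 bases on the same strand (2.10%).

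TGFBI, the TGF-beta-induced matrix protein, was barely transcribed: 0, 1, 2 and 4 counts in GTEA1 libraries, 0, 9, 7 and 5 in GTEA7 libraries, and 8, 17 and 11 in DMSO libraries. Every library with either extract lay below every DMSO library in CPM, though the highest GTEA7 value, 0.461 CPM, was close to the lowest DMSO value, 0.470 CPM. Pooled over libraries, TGFBI was 5.91-fold lower with GTEA1 than with DMSO (95% Clopper-Pearson interval 2.59 to 15.7, from 7 and 36 counts) and 2.37-fold lower with GTEA7 (1.34 to 4.27, from 21 and 36 counts). These intervals cover counting error only. In an edgeR fit without the low-count filter, which took in 39265 genes, the GTEA1 value was -2.48 ± 0.53 (edgeR adjusted p = 1.6e-05) and the GTEA7 value -1.21 ± 0.42 (edgeR adjusted p = 0.043).

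On the epithelial side, GRHL2, the grainyhead-like activator of junction genes, had 24.3, 26.2, 25.2 and 27.0 CPM in GTEA1 libraries, 37.4, 36.6, 40.2 and 33.6 CPM in GTEA7 libraries, and 39.3, 40.1 and 38.7 CPM in DMSO libraries. All GTEA1 libraries lay below all others, and GTEA7 overlapped DMSO. GTEA1 over DMSO was -0.62 ± 0.06 (edgeR adjusted p = 3.3e-13), or 1.53-fold lower. As a description within each library, the ratio of ZEB1 to GRHL2 per exon length was 0.421 to 0.493 with GTEA1, 0.116 to 0.173 with GTEA7 and 0.125 to 0.157 with DMSO.

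The epithelial splicing regulators parted ways. ESRP1 had 376, 389.8, 410.1 and 423 CPM in GTEA1 libraries, 206, 212, 213 and 204 CPM in GTEA7 libraries, and 204, 207 and 208 CPM in DMSO libraries. GTEA1 stood clear of the others, and GTEA7 and DMSO overlapped. The log2 fold change of GTEA1 over DMSO was 0.95 ± 0.04 (edgeR adjusted p = 1.5e-28), or 1.94-fold. ESRP2 had 34.1, 34.0, 35.9 and 37.3 CPM in GTEA1 libraries, 35.8, 35.3, 33.1 and 33.8 CPM in GTEA7 libraries, and 38.4, 34.7 and 40.0 CPM in DMSO libraries, so that its ranges overlapped throughout. Its GTEA1 value was -0.09 ± 0.06 (95% interval -0.20 to 0.03, edgeR adjusted p = 0.17), but -0.25 when scaled by library size alone (edgeR adjusted p = 0.00014) and -0.15 without DMSO replicate 2 (edgeR adjusted p = 0.037). Per exon length, ESRP1 exceeded ESRP2 by a ratio of 12.6 to 13.1 in GTEA1 libraries, 6.58 to 7.33 in GTEA7 libraries and 5.93 to 6.81 in DMSO libraries.

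**Figure D3:**
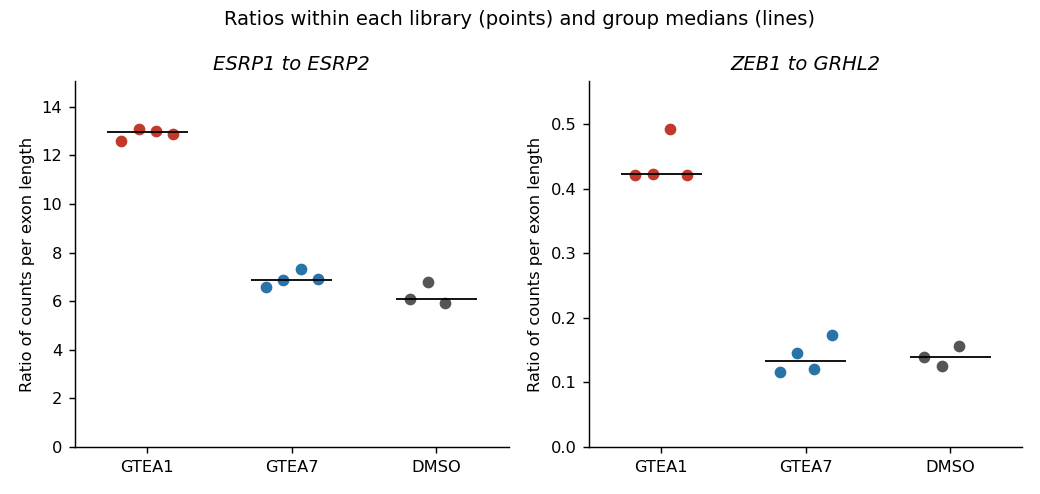
Ratios of counts per exon length within each library (points) with group medians (lines), for GTEA1, GTEA7 and DMSO. The ESRP1 to ESRP2 ratio is 12.6 to 13.1 with GTEA1, against 5.93 to 6.81 with DMSO, and the ZEB1 to GRHL2 ratio 0.421 to 0.493 with GTEA1, against 0.125 to 0.157 with DMSO.

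GTEA7 left most of these genes near DMSO. AXL and LOXL2 fell slightly, and 0 of the 9 rose by edgeR, also at an unadjusted p under 0.05, as by limma-voom and DESeq2. These were 2 of the 9 members tested, where 22.5% of all tested genes were called (12.0% higher and 10.4% lower), and 2 of 9 had groups without overlap, as 30.5% of all tested genes did (15.6% higher and 14.9% lower). The share of members is thus again near the background. GTEA7 was compared with the same DMSO libraries as GTEA1, so the comparisons are not independent. Scaling by library size alone called 1255 genes higher and 2954 lower, where TMM called 2159 higher and 1877 lower.

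AXL averaged 36.0 ± 1.23 CPM with GTEA7 and 41.2 ± 0.29 CPM with DMSO, and its log2 fold change of -0.19 ± 0.05 (edgeR adjusted p = 0.0029) was a 1.14-fold decrease. LOXL2 averaged 40.1 ± 2.81 CPM with GTEA7 and 45.3 ± 0.96 CPM with DMSO, a fold change of -0.18 ± 0.05 (edgeR adjusted p = 0.0085) that did not pass without GTEA7 replicate 3 (-0.14, adjusted p = 0.06). Both changes are small beside those with GTEA1, which ran the other way. ZEB1 gave -0.12 ± 0.11 (95% interval -0.34 to 0.10, edgeR adjusted p = 0.48), SNAI1 -0.18 ± 0.11 (-0.41 to 0.05, adjusted p = 0.27) and GRHL2 -0.09 ± 0.05 (-0.20 to 0.02, adjusted p = 0.25). ESRP1 had the narrowest interval, 0.02 ± 0.04 (-0.06 to 0.09, edgeR adjusted p = 0.79). ESRP2, at -0.12 ± 0.06 (edgeR adjusted p = 0.11), passed when scaled by library size alone (-0.17, adjusted p = 0.018) and without DMSO replicate 2 (-0.18, adjusted p = 0.033). The counts of SNAI2 (-0.21 ± 0.32, interval -0.85 to 0.44, edgeR adjusted p = 0.7) and TWIST1 (0.13 ± 0.24, interval -0.35 to 0.60, adjusted p = 0.76) left wide intervals.

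Set directly against each other, the extracts differed in 7 of the 9 members tested, with 6 lower and 1 higher in GTEA7 than in GTEA1 cells. Among all tested genes 72.7% were called (36.2% higher and 36.4% lower). The share of members called, counting both directions, is again close to that background. The split of 6 lower and 1 higher was not tested against it. The groups did not overlap for 5 members, as was the case for 65.3% of all tested genes (32.8% higher and 32.5% lower). AXL was lower in GTEA7 than in GTEA1 cells by -2.24 ± 0.04 on the log2 scale (4.71-fold lower, edgeR adjusted p = 5.4e-43), and 1.39% of all tested genes had a fold change at least this low. ZEB1 (-1.16 ± 0.09, edgeR adjusted p = 3.1e-16), ESRP1 (-0.94 ± 0.03, adjusted p = 6e-30) and LOXL2 (-0.88 ± 0.05, adjusted p = 4.9e-23) were lower too, each without overlap. GRHL2 was the gene that was higher with GTEA7 (0.52 ± 0.06, edgeR adjusted p = 6.9e-12).

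SNAI1 was lower with GTEA7 as well (-0.38 ± 0.11, edgeR adjusted p = 0.0014), although its ranges overlapped: 5.99 to 8.69 CPM with GTEA7, against 8.09 to 10.7 CPM with GTEA1. SNAI2 passed at -0.69 ± 0.28 (edgeR adjusted p = 0.028), but not without GTEA7 replicate 3 (-0.50, adjusted p = 0.12) and not without GTEA1 replicates 1 or 2 (-0.63 and -0.62, adjusted p = 0.064 and 0.074). TWIST1 gave -0.39 ± 0.21 (95% interval -0.81 to 0.03, edgeR adjusted p = 0.086) and passed only without GTEA7 replicate 1 (-0.54, adjusted p = 0.029). ESRP2 gave -0.04 ± 0.05 (-0.14 to 0.07, edgeR adjusted p = 0.54). TGFBI was 2.50-fold higher with GTEA7 than with GTEA1 in pooled counts (95% Clopper-Pearson interval 1.02 to 6.95, counting error only), with overlapping libraries. The edgeR fit without the low-count filter gave 1.27 ± 0.61 and did not pass (edgeR adjusted p = 0.093).

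**Figure D4:**
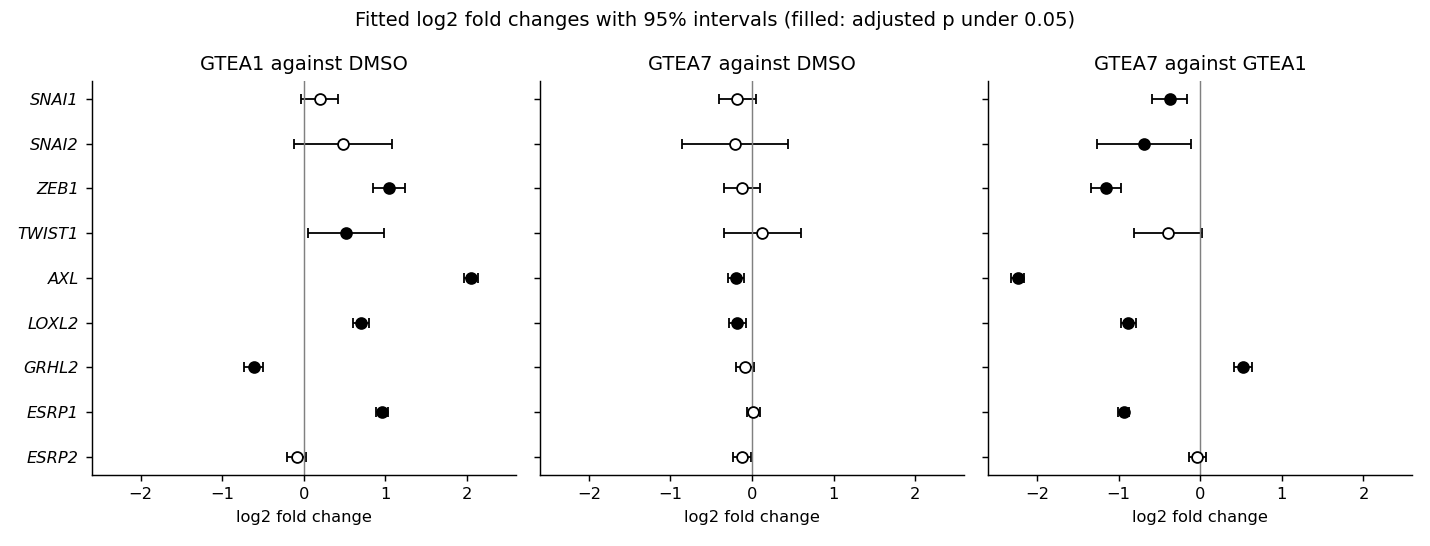
Log2 fold changes of the 9 tested members with 95% intervals from edgeR (filled: adjusted p under 0.05) for GTEA1 against DMSO, GTEA7 against DMSO and GTEA7 against GTEA1. AXL lies at 2.04, -0.19 and -2.24, and GRHL2 is the member below 0 with GTEA1 among those that passed.

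Lists of related genes place these changes beside the rest of each pathway, and are described by counts and medians only. For GTEA1 against DMSO each count stands beside the 35.6% of all tested genes that were higher and the 36.2% that were lower, and beside a median of -0.008. Of 12 other EMT transcription factors, 6 were expressed enough to test, 1 rose and 4 fell (median log2 fold change -0.58). FOXC1, a forkhead factor, fell to 82.2 ± 2.79 CPM with GTEA1, against 154 ± 3.67 CPM with DMSO (-0.90 ± 0.04, edgeR adjusted p = 1.1e-26). SNAI3 (-0.76 ± 0.19) and TCF3 (-0.41 ± 0.04), which encodes the E-box binding protein E2A, fell as well. HMGA2, a chromatin protein that induces SNAI1 and TWIST1 in other systems, rose (0.56 ± 0.04, 337 ± 12.4 CPM with GTEA1 and 229 ± 12.3 CPM with DMSO). TWIST2 and GSC had no count in any library, and ZEB2 had 2, 3 and 2 counts over the GTEA1, GTEA7 and DMSO libraries.

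Of the 17 other epithelial transcription and splicing factors, 14 were tested, 3 rose and 8 fell with GTEA1 (median -0.47). The grainyhead relatives of GRHL2 differed in direction: GRHL1 rose (0.80 ± 0.07, 29.5 ± 1.41 CPM with GTEA1 and 16.9 ± 0.68 CPM with DMSO), and GRHL3 fell (-1.31 ± 0.20, 1.21 ± 0.147 and 2.99 ± 0.296 CPM). KLF5, a factor of proliferating intestinal epithelium, rose (1.01 ± 0.04), as did ELF3 (0.28 ± 0.05). ELF5 (-1.98 ± 0.23) and OVOL2 (-1.79 ± 0.49, from 9 counts with GTEA1 and 28 with DMSO) fell most.

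All 22 epithelial genes listed as repressed by ZEB1 or SNAI1 or activated by GRHL2 were expressed enough to test. Whether these factors control them in HCT116 was not tested. Of the 22, 16 rose and 4 fell with GTEA1 (median 0.38), where 35.6% of all tested genes were higher and 36.2% lower. Scaled by library size alone, 11 rose and 5 fell. The tight-junction gene CLDN7 rose most, to 68.1 ± 3.35 CPM with GTEA1, against 17.2 ± 1.05 CPM with DMSO (1.99 ± 0.06, edgeR adjusted p = 5.4e-33). The protease inhibitor gene SPINT2 (1.23 ± 0.05) and the membrane serine protease gene PRSS8 (1.13 ± 0.07) rose as well. The genes that fell were MUC1 (-0.57 ± 0.17), the matriptase gene ST14 (-0.54 ± 0.04), the junction plaque gene CGN (-0.53 ± 0.05) and MARVELD3 (-0.22 ± 0.08, edgeR adjusted p = 0.017). The MARVELD3 call was lost without DMSO replicate 3 (adjusted p = 0.081) and without GTEA1 replicate 4 (adjusted p = 0.071).

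Mesenchymal markers were split with GTEA1: of 17 listed, 11 were tested, 4 rose and 4 fell (median -0.18). Fibronectin, FN1, fell to 27.8 ± 2.67 CPM with GTEA1, against 188 ± 1.74 CPM with DMSO (-2.76 ± 0.05, edgeR adjusted p = 1.6e-43). SPARC (-1.57 ± 0.17), S100A4 (-1.32 ± 0.08) and COL1A1 (-0.34 ± 0.06) also fell. Tenascin C, TNC, rose but stayed low (1.38 ± 0.353 CPM with GTEA1 and 0.300 ± 0.108 CPM with DMSO, 2.15 ± 0.36). Also higher with GTEA1 were TAGLN (0.75 ± 0.12), VIM (0.58 ± 0.18) and the fibronectin receptor subunit ITGA5 (0.40 ± 0.05, 83.1 CPM with GTEA1 and 63.1 CPM with DMSO). VIM stayed low, at 3.02 CPM with GTEA1 and 2.02 CPM with DMSO, and TAGLN stood at 8.74 and 5.22 CPM. The classical N-cadherin gene CDH2 had 1, 6 and 3 counts over the GTEA1, GTEA7 and DMSO libraries.

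Beside AXL itself, its ligand gene GAS6 rose with GTEA1, to 49.8 ± 0.928 CPM, against 22.4 ± 1.19 CPM with DMSO (1.14 ± 0.06, edgeR adjusted p = 2.9e-24). The related receptor MERTK rose too (1.63 ± 0.08, 56.8 ± 6.38 CPM with GTEA1 and 18.3 ± 1.56 CPM with DMSO). The third receptor, TYRO3, fell (-0.45 ± 0.06), as did the other ligand gene PROS1 (-0.15 ± 0.06, edgeR adjusted p = 0.019), so 2 of the 4 rose and 2 fell (median 0.50). The PROS1 call was lost without DMSO replicates 1 (adjusted p = 0.087) or 2 (0.054) and without GTEA1 replicate 4 (0.2). Of the 4 other lysyl oxidases 0 rose (also at an unadjusted p under 0.05, and by limma-voom and DESeq2) and 1 fell, LOXL3 (-0.95 ± 0.17), with a list median of -0.17. Scaled by library size alone, 3 of these 4 fell.

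Of 10 genes that TGF-beta induces in many cells, 6 rose and 2 fell with GTEA1 (median 0.24), and 4 rose and 4 fell when scaled by library size alone. BHLHE40, a transcriptional repressor, rose to 204 ± 23.7 CPM with GTEA1, against 76.4 ± 5.12 CPM with DMSO (1.42 ± 0.09, edgeR adjusted p = 1.3e-07), and LTBP2, a latent TGF-beta binding protein gene, rose as well (1.35 ± 0.13). SMAD7, the feedback inhibitor of the TGF-beta receptor, fell to 3.10 ± 0.247 CPM with GTEA1, against 13.3 ± 0.532 CPM with DMSO (-2.10 ± 0.12), and KLF10 fell as well (-0.52 ± 0.04). TGFBI, with 7 counts over the GTEA1 libraries and 36 over the DMSO libraries, lay on the side of SMAD7 and KLF10.

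Splicing factors that act with or against the ESRPs were all measured: 3 of 9 rose and 4 fell with GTEA1 (median -0.19). HNRNPM, which competes with ESRP1 at shared exons, fell to 69.9 ± 5.71 CPM with GTEA1, against 267 ± 10.5 CPM with DMSO (-1.94 ± 0.04, edgeR adjusted p = 4e-32). QKI, a factor of mesenchymal splicing, rose (1.18 ± 0.05, 90.0 ± 8.23 CPM with GTEA1 and 39.8 ± 0.514 CPM with DMSO), as did CELF1 (0.50 ± 0.04). HNRNPA1 (-0.86 ± 0.04), MBNL1 (-0.37 ± 0.04) and PTBP1 (-0.32 ± 0.03) fell, though HNRNPA1 has many processed pseudogenes that can share its reads. RBFOX2 rose by 0.14 ± 0.05 (edgeR adjusted p = 0.016), but stood at -0.02 when scaled by library size alone, and the call was lost without DMSO replicate 1 (adjusted p = 0.089) or GTEA1 replicate 3 (0.052). Among 10 genes of SNAI1 protein turnover, 9 were tested, 6 rose and 1 fell with GTEA1 (median 0.50). FBXL5 (1.53 ± 0.05, 99.1 ± 5.97 CPM with GTEA1 and 34.3 ± 1.70 CPM with DMSO) and FBXW7 (1.19 ± 0.05), both substrate receptors of ubiquitin ligases, rose most, followed by the kinase genes LATS2 (1.08 ± 0.07) and CSNK1E (0.67 ± 0.04). FBXL14 fell (-0.46 ± 0.14, edgeR adjusted p = 0.0055), a call lost without DMSO replicate 2 (adjusted p = 0.067).

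With GTEA7 the counts stand beside 12.0% of all tested genes higher and 10.4% lower. SMAD7 fell to 3.44 ± 0.300 CPM with GTEA7, against 13.3 ± 0.532 CPM with DMSO (-1.95 ± 0.11, edgeR adjusted p = 2.7e-20). In the TGF-beta list 1 gene rose and 5 fell (median -0.33): PMEPA1 (-0.68 ± 0.17), JUNB (-0.48 ± 0.06), SKIL (-0.34 ± 0.06) and KLF10 (-0.33 ± 0.04) fell with SMAD7. Of the mesenchymal markers 0 rose and 4 fell (median -0.32), and 0 rose and 7 fell when scaled by library size alone. The 4 were FN1, at 124 ± 4.62 CPM with GTEA7 and 188 ± 1.74 CPM with DMSO (-0.60 ± 0.04), COL1A1 (-0.39 ± 0.06), ITGA5 (-0.24 ± 0.05) and VIM (-0.61 ± 0.21, edgeR adjusted p = 0.027). Leaving out DMSO replicate 1 (-0.44, adjusted p = 0.21) or the third GTEA7 library (-0.52, adjusted p = 0.093) ended the VIM call. It was also lost by DESeq2's Wald test (adjusted p = 0.077) and by edgeR without the low-count filter (adjusted p = 0.07). VIM was at 1.32 CPM with GTEA7 and 2.02 CPM with DMSO.

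Among the epithelial genes listed as targets of ZEB1, SNAI1 or GRHL2, 7 of 22 rose and 2 fell with GTEA7 (median -0.006). CLDN7 was among those that rose (0.38 ± 0.07), and CGN (-0.34 ± 0.05) and LLGL2 (-0.19 ± 0.04) fell. Of the other epithelial factors 3 rose and 3 fell (median 0.003): EHF (0.26 ± 0.04), RBM47 (0.23 ± 0.06) and ELF3 (0.22 ± 0.05) rose, and GRHL3 (-0.85 ± 0.18), ELF5 (-0.56 ± 0.18) and OVOL1 (-0.43 ± 0.13) fell. The ELF5 call was lost without DMSO replicates 1 or 3 (edgeR adjusted p = 0.12 and 0.066) or GTEA7 replicate 2 (0.077), and the OVOL1 call without DMSO replicate 3 (0.062) or GTEA7 replicate 3 (0.071). In the list of other EMT factors TCF3 fell (-0.19 ± 0.04, median -0.04) and 0 of the 6 rose. The counts of 0 for mesenchymal markers and EMT factors that rose were also 0 at an unadjusted p under 0.05 and by limma-voom and DESeq2.

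In the remaining 4 lists 6 of the 26 genes tested passed with GTEA7, a share near the 22.5% of all tested genes. LOXL3 fell (-0.55 ± 0.15, edgeR adjusted p = 0.0059), but not without DMSO replicate 1 (adjusted p = 0.065), and FBXL5 rose (0.26 ± 0.05, adjusted p = 0.00027). PROS1 rose by 0.15 ± 0.06 (edgeR adjusted p = 0.048), a call lost without any 1 of DMSO replicates 1, 2 and 3 (0.053, 0.099 and 0.22) or GTEA7 replicates 1, 3 and 4 (0.079, 0.14 and 0.061). RBFOX2 (-0.14 ± 0.05, edgeR adjusted p = 0.034) did not pass without DMSO replicates 2 or 3 (0.13 and 0.12) or GTEA7 replicates 2, 3 or 4 (0.14, 0.077 and 0.071). LATS2 (-0.21 ± 0.07, edgeR adjusted p = 0.037) did not pass without DMSO replicates 1 or 3 (0.18 and 0.26) or GTEA7 replicates 2, 3 or 4 (0.099, 0.072 and 0.069). CSNK1E fell (-0.14 ± 0.04, edgeR adjusted p = 0.011), with an adjusted p of 0.05 without DMSO replicate 1 and of 0.056 without DMSO replicate 3. The medians were -0.05 over AXL ligands and relatives, -0.24 over the other lysyl oxidases, -0.03 over the splicing factors and -0.02 over SNAI1 turnover.

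**Figure D5:**
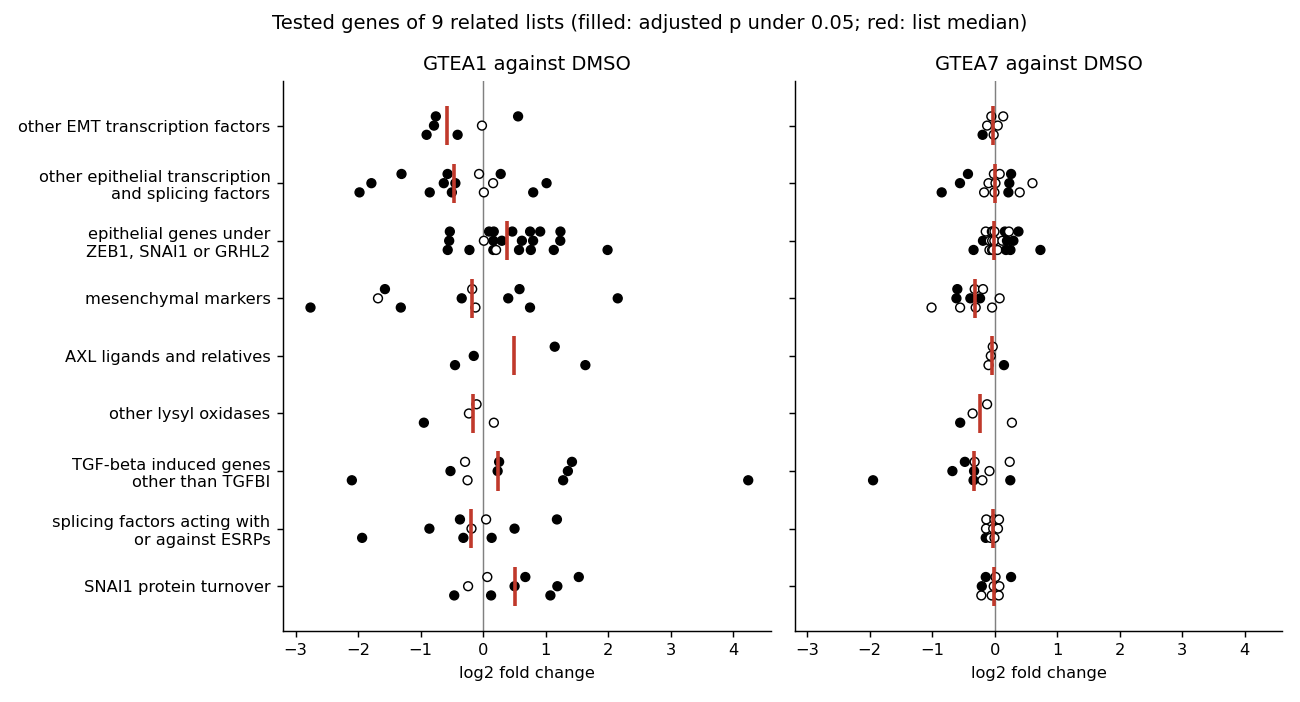
Log2 fold changes of the tested genes of 9 related lists for GTEA1 against DMSO and GTEA7 against DMSO (points, filled where the adjusted p is under 0.05), with the list median as a red line. FN1 lies at -2.76 and CLDN7 at 1.99 with GTEA1, and SMAD7 at -1.95 with GTEA7.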

How the data were processed

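Polyadenylated RNA of 11 HCT116 libraries was measured by sequencing. The authors deposited raw read counts per gene, 1 column per library. HTSeq 0.5.4, DESeq 1.10.1, SAMtools 0.1.18, STAR, GATK and Picard are named, without roles, per the submitters' processing notes. Genome build, annotation and strandedness were not given in the sources used here.

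Groups came from the labels. Symbols were matched for 60370 of 60624 Ensembl IDs, and a further 840 IDs not from Ensembl held 0.727% of counts. One model of all 3 groups was fitted in edgeR 4.0.16 (R 4.3.3) with TMM scaling, filterByExpr, robust quasi-likelihood F tests and Benjamini-Hochberg adjustment over 17963 genes at a threshold of 0.05. SEs were derived from the fold change and F. The code was tested on simulated counts. CPM per kilobase used GENCODE v29 exon lengths.

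Alternatives were DESeq2 1.42.0 size factors, library size alone, no low-count filter, a stricter one (1 CPM in 3 libraries), a replicate block, only the compared groups, limma-voom (limma 3.58.1), DESeq2's Wald test and leaving out each library. Same-numbered libraries did not deviate together, so the numbers were not taken as pairs. Within groups the chi-square per degree of freedom between libraries was 1.39 to 4.09, so none was treated as a duplicate.

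The members and lists were chosen with earlier results of these data known. All 10 members are named, and from each list the up to 4 genes past the threshold with the largest GTEA1 change, the up to 3 with the largest GTEA7 change, and every gene of a direction with 5 or fewer called. Some genes that this rule names are not reported here. Genes named at or near 0 counts were chosen after their values were seen.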

Additional observations from a re-analysis of the deposited data

How the results depend on the processing

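Over the 15, 15 and 16 alternative settings, 122 of 135 member values for GTEA1 against DMSO, 128 of 134 for GTEA7 against DMSO and 137 of 144 for GTEA7 against GTEA1 kept their direction and side of the threshold. SNAI2 for GTEA7 against DMSO had no adjusted p from DESeq2. Scaling by library size alone turned ESRP1 to -0.033 for GTEA7 against DMSO, ESRP2 to 0.072 for GTEA7 against GTEA1 and RBFOX2 to -0.024 for GTEA1 against DMSO. It gave 2 members lower with GTEA1, not 1, ESRP2 being added, and 1255 genes higher and 2954 lower with GTEA7. It also removed the SNAI2 call between the extracts (adjusted p = 0.062), as did DESeq2's Wald test (0.074). Without a low-count filter 2 members fell with GTEA1, TGFBI being added, and TWIST1 did not pass (adjusted p = 0.082). Leaving out 1 library gave 1 to 2 members lower with GTEA1 and 1 to 3 with GTEA7. The second with GTEA1 was TGFBI without DMSO replicate 1, where it passed the filter (-2.73 with GTEA1, adjusted p = 0.00017, and -1.46 with GTEA7, adjusted p = 0.033), and ESRP2 without DMSO replicate 2. For GTEA7 against DMSO, leaving out 1 library gave SNAI2 values of -0.41 to 0.072, the positive one without DMSO replicate 3, and TWIST1 values of -0.023 to 0.21, the negative one without GTEA7 replicate 1. The cause of these shifts was not tested.

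The 10 pairs of same-numbered libraries had correlations of deviations between -0.055 and 0.0262, none over 0.1. With the replicate block, 6268 genes were higher and 6457 lower with GTEA1, and 2180 and 1907 with GTEA7, no member call changed, and the MARVELD3 (adjusted p = 0.067) and PROS1 (0.065) calls with GTEA1 were lost. Of the named list genes, 720 of 733 values for GTEA1 and 366 of 405 for GTEA7 kept their direction and call. Depth limits SNAI2, TWIST1 and TGFBI, whose counts per library did not exceed 31.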
